A study of Mus musculus with 4 samples.

Results

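The megakaryocyte and platelet genes examined here were *Pf4*, *Itga2b*, *Gp1bb*, *Gp9*, *Cd9*, *F2r*, *Nfe2*, *Gfi1b* and *Vwf*, a list of 9 genes given by symbol and drawn up with earlier results of these data known. Of these, 8 were among the 12067 genes of the count table, and *Gp9* was not analysed here. Megakaryocytes are large polyploid cells of the bone marrow that shed platelets, and they arise from progenitors shared with the erythroid lineage and from stem cells. Platelets adhere to damaged vessel wall through receptors such as the glycoprotein Ib-IX-V complex, which binds von Willebrand factor, and aggregate through the integrin αIIbβ3. They are activated by thrombin and release the contents of their granules. Transcription factors of the GATA, ETS, SCL/TAL1 and NF-E2 groups drive the genes of this programme. Several of the listed genes are also used by other cells, such as erythroid cells, endothelium, stem cells and granulocytes.

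Quant-seq, which sequences the 3′ ends of polyadenylated transcripts, had been performed on donor-derived KL cells, the CD45.2+ lineage-negative c-Kit+ Sca-1- myeloid progenitors of the bone marrow, 20 weeks after transplantation of bone marrow into sublethally irradiated female *Ptprca* mice. The BcorΔE9-10 group (n = 2) carried the scl-Cre-ERT + transgene and a floxed *Bcor* allele (Bcorfl/y), so that tamoxifen removed exons 9 and 10 of the single X-linked copy. The BcorWT group (n = 2) carried the same floxed allele (Bcorfl/y) without Cre. Both groups of donors had received tamoxifen, so that the deletion and the presence of Cre cannot be told apart. The Cre is driven by a stem cell enhancer of *Tal1* (SCL), and progenitors carry the deletion only as descendants of recombined cells. The labels do not give donor age, nor whether replicates came from separate donors, and p-values measure only the spread between these libraries.

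The libraries held 3825289.5 to 6253100.5 counts. Levels are given in CPM, the counts of a library scaled to its depth with TMM factors, on which 3 counts equal 0.489 to 0.876 CPM. *Kit* was detected at 29.4 to 61.9 CPM and *Ly6a*, which encodes Sca-1, at 0 to 3.80 CPM. *Gm42418*, which overlaps ribosomal RNA, took between 1.43% (BcorWT replicate 2) and 27.9% (BcorWT replicate 1) of the counts. BcorWT replicate 2 held the highest or the lowest of the 4 values for 70.5% of all genes. *Bcor* itself was counted at 14.9 to 19.2 CPM, and a 3′ count does not check the loss of 2 internal exons.

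The 300 bases around the annotated start (250 before it and 50 from it) were taken from RefSeq on GRCm38.p6 for 7 of the 9 genes, with no entry used for *Nfe2* or *Vwf*. On both strands they were searched for a motif of the erythroid and megakaryocytic zinc-finger factors, AGATAA, for the core of ETS sites, GGAAG, and for the core shared by NF-E2 and AP-1 sites, TGAGTCA, none of which contains another. A match describes letters and not binding, and other forms of these motifs were not searched. AGATAA occurred in 1 of the 7 promoters, that of *Pf4*, and in 11.2% of all 32851 promoters. GGAAG occurred in 5 of the 7 and in 71.4% of all promoters. TGAGTCA occurred in 1 of the 7, that of *F2r*, and in 5.2% of all promoters. The promoter of *Gfi1b* held no match to these exact letters. The promoters of *Pf4* (chr5:90772185-90772484, + strand), *Itga2b* (chr11:102469834-102470133, - strand) and *F2r* (chr13:95618417-95618716, - strand) are shown because they held the AGATAA match, the most GGAAG matches and the TGAGTCA match, with matches in capitals and an ETS match on the opposite strand reading CTTCC. Positions are counted with the start of the RefSeq entry as 0. For *Itga2b*, GENCODE M21 places the start of the gene 239 bases upstream of that base, so that its matches lie within the gene as GENCODE gives it. In *Pf4* the GATA letters began at position 36 and the ETS letters at -9, in *Itga2b* the ETS letters began at -124, -42, -36 and -25, and in *F2r* the NF-E2 letters began at -204.
Pf4: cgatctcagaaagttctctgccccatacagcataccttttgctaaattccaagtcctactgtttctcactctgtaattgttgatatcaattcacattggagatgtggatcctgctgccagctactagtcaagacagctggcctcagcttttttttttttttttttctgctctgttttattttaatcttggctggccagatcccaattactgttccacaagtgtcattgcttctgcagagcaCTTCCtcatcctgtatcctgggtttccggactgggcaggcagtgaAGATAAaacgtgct
Itga2b: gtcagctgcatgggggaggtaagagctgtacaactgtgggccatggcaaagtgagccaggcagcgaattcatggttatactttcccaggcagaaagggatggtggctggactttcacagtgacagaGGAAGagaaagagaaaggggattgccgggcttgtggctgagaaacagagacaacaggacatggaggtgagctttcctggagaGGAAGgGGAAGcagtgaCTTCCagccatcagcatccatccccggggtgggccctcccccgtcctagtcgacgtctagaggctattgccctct
F2r: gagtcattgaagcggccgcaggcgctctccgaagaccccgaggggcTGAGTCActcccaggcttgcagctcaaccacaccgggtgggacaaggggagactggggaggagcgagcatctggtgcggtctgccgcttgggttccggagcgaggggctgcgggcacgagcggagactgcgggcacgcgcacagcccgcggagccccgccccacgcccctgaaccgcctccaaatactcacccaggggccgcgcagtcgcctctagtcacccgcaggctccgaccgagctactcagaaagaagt

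None of the 8 genes passed an adjusted p of 0.05 between BcorΔE9-10 and BcorWT KL cells (edgeR quasi-likelihood F test, Benjamini-Hochberg over all 12067 genes, adjusted p between 0.945 and 0.960), nor with limma-voom or DESeq2. Over all genes, 0.0166% passed with edgeR, 0.0331% with limma-voom and 0.356% with DESeq2. At an unadjusted p under 0.05, 1 of the 8 was called by each tool, *Pf4*, against 4.42% of all genes by edgeR. By log2 fold change, 3 genes were higher and 5 lower in BcorΔE9-10 KL cells, and 47.7% of all genes were higher. The median log2 fold change of the 8 was -0.38, beside -0.03 over all genes. It was 0.0030 without BcorWT replicate 1 and 0.16 without BcorWT replicate 2. The groups did not overlap for 3 of the 8, *Pf4* and *Nfe2* (lower) and *Gfi1b* (higher), against 33.9% of all genes.

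**Figure D1:**
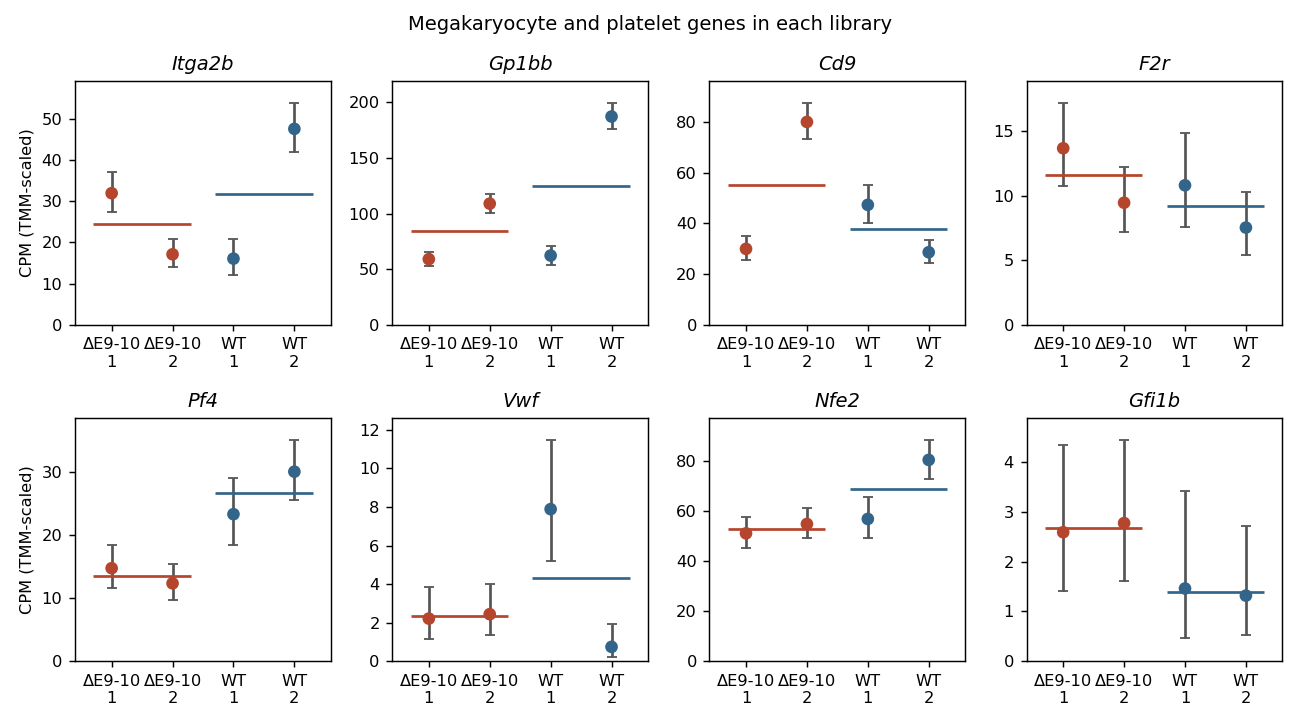
Level of each of the 8 genes in each library, in CPM scaled by TMM factors on a linear axis from 0. Points are libraries, vertical bars are exact 95% Poisson intervals of counting error, and horizontal lines are group means (n = 2). The groups stand apart for Pf4, Nfe2 and Gfi1b and overlap for the other 5 genes.

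The surface receptors are described first. *Itga2b* (chr11:102453297-102470122, GRCm38, - strand) encodes integrin αIIb (CD41), which pairs with the product of *Itgb3* as the platelet fibrinogen receptor and also marks early megakaryocyte progenitors. Its level was 32.0 and 17.1 CPM in BcorΔE9-10 replicates 1 and 2, and 16.1 and 47.6 CPM in BcorWT replicates 1 and 2. The BcorWT libraries held both the lowest and the highest value, 2.96-fold apart, and the BcorΔE9-10 libraries lay between them. The log2 fold change was -0.39 (SE 0.54, 95% interval -1.64 to 0.86; edgeR adjusted p = 0.960). It was 0.61 without BcorWT replicate 2, -0.0027 without BcorΔE9-10 replicate 2, -0.90 without BcorΔE9-10 replicate 1 and -0.96 without BcorWT replicate 1, so that it turned without the first of these and was near 0 without the second. *Itgb3*, the β3 partner, gave 13.9, 12.1, 7.01 and 17.5 CPM in the same order of libraries, again with both extremes in BcorWT.

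*Gp1bb* (chr16:18620317-18622403, GRCm38, - strand) encodes the β chain of glycoprotein Ib, part of the platelet receptor for von Willebrand factor. Its counts were 319 and 668 in the BcorΔE9-10 libraries and 213 and 995 in the BcorWT libraries, which is 59.0, 109, 62.2 and 187 CPM. BcorWT replicate 2 was the highest, and the 2 lowest libraries came from different groups. For *Gp1bb* the log2 fold change was -0.57 (SE 0.54, 95% interval -1.83 to 0.68; edgeR adjusted p = 0.945), and 0.43 without BcorWT replicate 2.

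These counts cannot be assigned to *Gp1bb* alone. In GENCODE M21, 1902 of its 2087 exonic bases (91.1%) are also exonic in *Sept5*, a septin gene on the same strand, and 867 (41.5%) in *Gm49601*. *Sept5* was counted at 316, 654, 213 and 992 in the 4 libraries, within 3, 14, 0 and 3 counts of *Gp1bb*. The overlap leaves *Gp1bb* 149 exonic bases of its own, at its 3′ end. The strand setting of the counting and its treatment of reads in more than 1 gene are not given in the sources used here, and transcripts of the pair cannot be told apart in this table. *Gp1bb* made up between 27.5% and 48.8% of the counts of the 8 genes in a library. The summed level of the 8 was 205 and 288 CPM in BcorΔE9-10 and 226 and 384 CPM in BcorWT. Without *Gp1bb* it was 146 and 179 CPM against 164 and 196 CPM, and the groups overlapped in both sums.

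**Figure D2:**
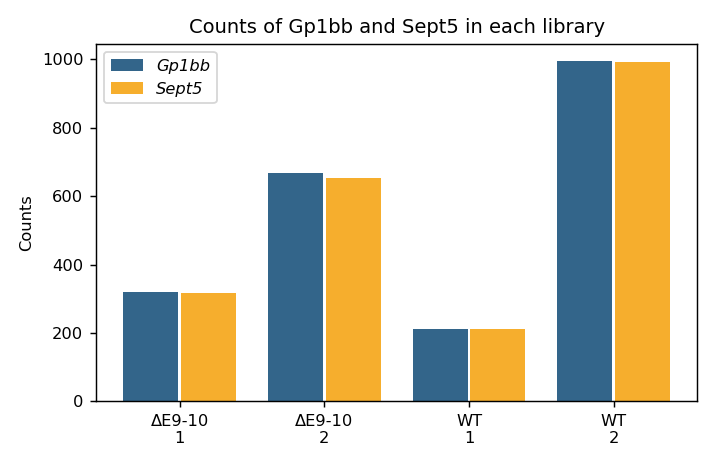
Deposited counts of Gp1bb and of Sept5, which share most of their exonic bases on one strand, in each library on a linear axis from 0. The paired bars differ by at most 14 counts in any library.

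*Cd9* (chr6:125460266-125494791, GRCm38, - strand) encodes a tetraspanin that is abundant on platelets and present on many other cells, granulocytes among them. Its level was 29.9 and 80.0 CPM in BcorΔE9-10 and 47.3 and 28.6 CPM in BcorWT. A single library, BcorΔE9-10 replicate 2, stood above the other three, which spanned 28.6 to 47.3 CPM. For *Cd9* the log2 fold change was 0.54 (SE 0.50, 95% interval -0.62 to 1.70; edgeR adjusted p = 0.945), and -0.33 without that library. Of the 11 neutrophil markers of the list, 5 were highest in that library (*S100a8*, *S100a9*, *Camp*, *Ctsg* and *Ms4a3*) and 6 in another (*Ltf*, *Ngp*, *Ly6g*, *Elane*, *Mpo* and *Prtn3*). Among all genes, 20.6% were highest in that library. *S100a8*, which encodes an abundant calcium-binding protein of neutrophils, was there at 72238 CPM, against 31874 to 44423 CPM in the others, whereas *Ngp*, which encodes a secondary granule protein, was at 24341 CPM there and at 54004 CPM in BcorWT replicate 2. *Itgam*, which encodes the CD11b of the depleting antibodies, was at 159 CPM in BcorΔE9-10 replicate 2, against 73.7 to 108 CPM in the others. The part of neutrophil RNA in the *Cd9* value was not tested.

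*F2r* (chr13:95601803-95618487, GRCm38, - strand) encodes the thrombin receptor PAR1, which human platelets use and which endothelium and fibroblasts also make. That platelet role is given for humans only, and the cells here are from mice. The level of *F2r* was 13.7 and 9.45 CPM in BcorΔE9-10 and 10.8 and 7.53 CPM in BcorWT. The groups interleaved, with replicate 1 above replicate 2 in both. Between groups the log2 fold change was 0.34 (SE 0.45, 95% interval -0.71 to 1.39; edgeR adjusted p = 0.957), and between 0.05 and 0.61 over the alternatives.

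*Pf4* and *Vwf* encode proteins stored in platelet α-granules. *Pf4* (chr5:90772435-90773383, GRCm38, + strand) encodes platelet factor 4, a chemokine characteristic of megakaryocytes. Its counts were 80 and 76 in BcorΔE9-10 and 80 and 160 in BcorWT. Scaled to depth this was 14.8 and 12.4 CPM against 23.4 and 30.1 CPM, a mean of 13.6 ± 1.69 (SD, n = 2) against 26.7 ± 4.77 (SD, n = 2). Both BcorΔE9-10 libraries were below both BcorWT libraries. The exact 95% Poisson interval of BcorΔE9-10 replicate 1 reached 18.4 CPM and that of BcorWT replicate 1 started at 18.5 CPM.

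The log2 fold change of *Pf4* was -0.98 (SE 0.36, 95% interval -1.81 to -0.15), with an unadjusted p of 0.0263 and an adjusted p of 0.945 by edgeR. The unadjusted p was 0.0256 by limma-voom and 0.0468 by DESeq2. Unadjusted and lower in BcorΔE9-10, 3.07% of all genes were called by edgeR. *Pf4* was lower under all 12 alternatives, between -1.15 and -0.78, with an unadjusted p from 0.00571 to 0.209. The unadjusted p was 0.114 without BcorΔE9-10 replicate 1, 0.209 without BcorΔE9-10 replicate 2 and 0.0565 without BcorWT replicate 2. In sorted bulk cells, fewer cells that express *Pf4*, of the megakaryocyte lineage or another, and less *Pf4* RNA per cell cannot be told apart. Of the 7 megakaryocyte markers analysed, *Pf4* among them, 4 were lower and 3 higher in BcorΔE9-10.

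*Vwf* (chr6:125546774-125686679, GRCm38, + strand) encodes von Willebrand factor, made by megakaryocytes and endothelium and also by platelet-biased stem cells. It was counted 12 and 15 times in BcorΔE9-10 and 27 and 4 times in BcorWT, that is 2.22, 2.45, 7.88 and 0.753 CPM. The BcorWT libraries were again at both ends, 10.5-fold apart, while the BcorΔE9-10 libraries differed by less than their counting error. The exact 95% Poisson intervals were 5.20 to 11.5 CPM for BcorWT replicate 1 and 0.205 to 1.93 CPM for BcorWT replicate 2. The log2 fold change was -0.83 (SE 0.99, 95% interval -3.12 to 1.47; edgeR adjusted p = 0.952), 1.60 without BcorWT replicate 1 and -1.75 without BcorWT replicate 2, and limma-voom gave 0.21. *Cd9* lies 51982 bases from *Vwf* on the same chromosome, and the pair were highest in different libraries.

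*Nfe2* and *Gfi1b* encode transcription factors. *Nfe2* (chr15:103248212-103258403, GRCm38, - strand) encodes the large subunit of NF-E2, required for the release of platelets. Its level was 51.2 and 54.9 CPM in BcorΔE9-10 and 56.9 and 80.5 CPM in BcorWT. The groups did not overlap, but BcorWT replicate 1 was nearer to the BcorΔE9-10 libraries than to the other BcorWT library. Between groups the log2 fold change was -0.38 (SE 0.33, 95% interval -1.13 to 0.38; edgeR adjusted p = 0.945), and it ran from -0.10 without BcorWT replicate 2 to -0.61 without BcorWT replicate 1 (unadjusted p = 0.0505).

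*Gfi1b* (chr2:28609450-28621982, GRCm38, - strand) encodes a zinc-finger repressor needed by both the megakaryocytic and the erythroid lineages. It was counted 14 and 17 times in BcorΔE9-10 and 5 and 7 times in BcorWT, or 2.59, 2.77, 1.46 and 1.32 CPM. Both BcorΔE9-10 libraries were above both BcorWT libraries, but the counting intervals of all 4 overlapped. The log2 fold change was 0.94 (SE 0.73, 95% interval -0.74 to 2.62; edgeR adjusted p = 0.945), and it stayed between 0.79 and 1.01 over the 11 alternatives that gave a value.

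**Figure D3:**
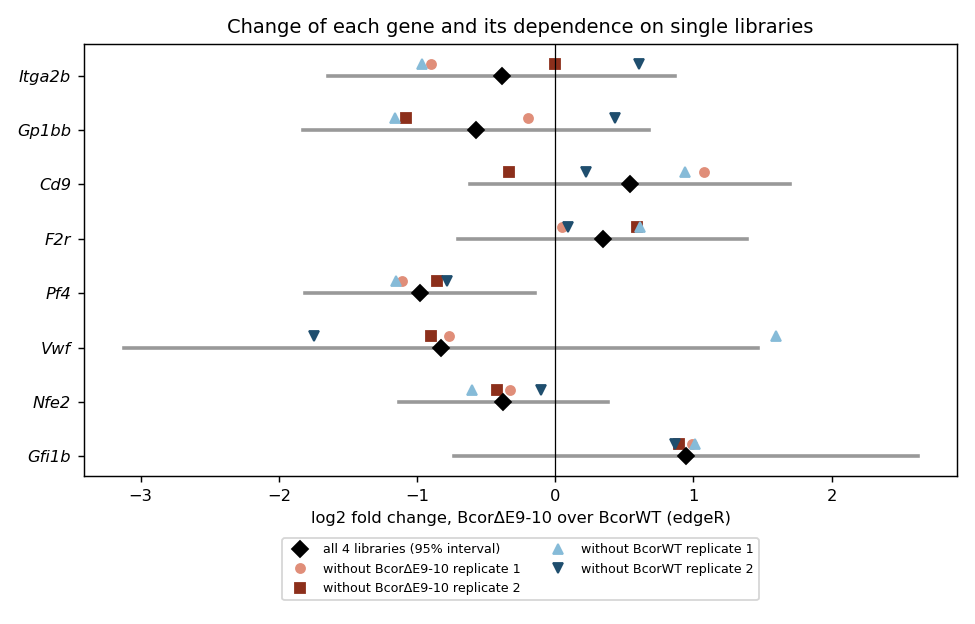
Log2 fold change of each gene, BcorΔE9-10 over BcorWT, from edgeR. Diamonds and grey lines are the values and 95% intervals from all 4 libraries, and the smaller marks leave out the library given in the legend. Itga2b, Gp1bb, Cd9 and Vwf change sign when a single library is left out, and the interval of Pf4 alone lies below 0.

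The BcorWT replicates differed by more than the groups (log2) for 6 of the 8 genes, against 69.9% of all genes, and the BcorΔE9-10 replicates for 4 of the 8, against 49.6% of all genes. Both shares were near those over all genes. BcorWT replicate 2 was the highest library for 4 of the genes and the lowest for the other 4, and held an extreme for 70.5% of all genes, as given above. Over all genes the median absolute log2 difference was 0.588 between the BcorWT replicates and 0.316 between the BcorΔE9-10 replicates. Averaged over the 8 genes, the centred log2 CPM was between -0.10 and 0.05 in the 4 libraries, because the genes went opposite ways. In BcorWT replicate 2, for example, *Gp1bb* was at 1.01 and *Itga2b* at 0.89, and *Vwf* at -1.34 and *Cd9* at -0.56. The 5 genes of the table whose centred values lay nearest to this average were *Tollip*, *Qrsl1*, *Atp6v1e1*, *Srgap2* and *H2-K1*, with a root mean square difference of 0.020 to 0.030 over the 4 libraries. They are nearly level across the libraries, as the average is, and describe no single gene of the list.

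A wider list of 74 further megakaryocyte and platelet genes was followed by role, of which 56 were among the genes of the table. Of these, 30 were higher and 26 lower in BcorΔE9-10 KL cells, with a median log2 fold change of 0.05. The median was -0.15 without BcorΔE9-10 replicate 2 and 0.14 without BcorWT replicate 1. None of the 56 genes passed an adjusted p of 0.05 by edgeR, and 1 had an unadjusted p under 0.05. This was *Tal1*, which encodes the SCL factor required for megakaryocytic and erythroid differentiation. It was at 29.6 and 21.7 CPM in BcorΔE9-10 and 13.7 and 10.5 CPM in BcorWT, with no overlap (log2 fold change 1.08, SE 0.38; unadjusted p = 0.0220 and adjusted p = 0.945 by edgeR). Higher in BcorΔE9-10 at an unadjusted p under 0.05 were 1.34% of all genes. Groups did not overlap for 11 genes that were higher and 8 that were lower, against 16.8% and 17.1% of all genes.

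Among the 15 transcription factors and cofactors of that list, 9 were higher and 6 lower, with a median of 0.12. *Etv6*, an ETS-family repressor, was at 179 and 156 CPM in BcorΔE9-10 and 131 and 103 CPM in BcorWT (log2 fold change 0.52, adjusted p = 0.945 by edgeR). *Mafg*, the small Maf partner of the NF-E2 subunit encoded by *Nfe2*, was at 119 and 165 CPM against 140 and 194 CPM (-0.23 on the log2 scale). *Lyl1*, a close relative of *Tal1*, was at 129 and 100 CPM against 122 and 216 CPM (-0.56 on the log2 scale). The groups were apart for *Etv6* and overlapped for *Mafg* and *Lyl1*.

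Of the 7 further surface receptors, 6 were higher and 1 lower, with a median of 0.08 and no gene whose groups stood apart. The most abundant were *Fcer1g*, the Fc receptor γ chain that signals for glycoprotein VI (log2 fold change 0.05), *Itgb1*, the integrin β1 chain (0.18), and *Pecam1*, an adhesion molecule of platelets and endothelium (-0.77, adjusted p = 0.945 by edgeR). *Pecam1* was at 58.0 and 32.3 CPM in BcorΔE9-10 and 56.1 and 98.0 CPM in BcorWT, again highest in BcorWT replicate 2. Of the 10 granule genes, 4 were higher and 6 lower, with a median of -0.21. *Cd63*, a granule membrane tetraspanin, had a log2 fold change of -0.27, *Srgn*, the granule proteoglycan serglycin, of 0.26, and *F13a1*, the A chain of coagulation factor XIII, of -0.14. All 3 are also made by myeloid cells.

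Receptors of the G protein-coupled and purine families and their signalling partners were higher for 9 of 13, with a median of 0.42. Among the 13, groups did not overlap for 6 that were higher and 2 that were lower, against 16.8% and 17.1% of all genes. The most abundant were *Rasgrp2*, an activator of the GTPase Rap1 (324 and 361 CPM in BcorΔE9-10 against 427 and 477 CPM in BcorWT, log2 fold change -0.40), *Rap1b* (244 and 289 CPM against 187 and 206 CPM, 0.44) and *Plcb2*, a phospholipase (-0.15). Groups stood apart for *Rasgrp2* and *Rap1b*, in opposite directions, with adjusted p of 0.945 for both by edgeR. Cytoskeletal and platelet formation genes were lower for 7 of 9, with a median of -0.37. *Flna*, which encodes the filamin that anchors glycoprotein Ib, was at 327 and 483 CPM in BcorΔE9-10 and 493 and 1032 CPM in BcorWT (log2 fold change -0.91, SE 0.44; adjusted p = 0.945 by edgeR). *Tln1*, the integrin activator talin, had a log2 fold change of -0.37 and *Myh9*, non-muscle myosin heavy chain, of 0.02. Both thromboxane pathway enzymes, *Ptgs1* (-0.07) and *Tbxas1* (-0.44), were lower, without passing the test.

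**Figure D4:**
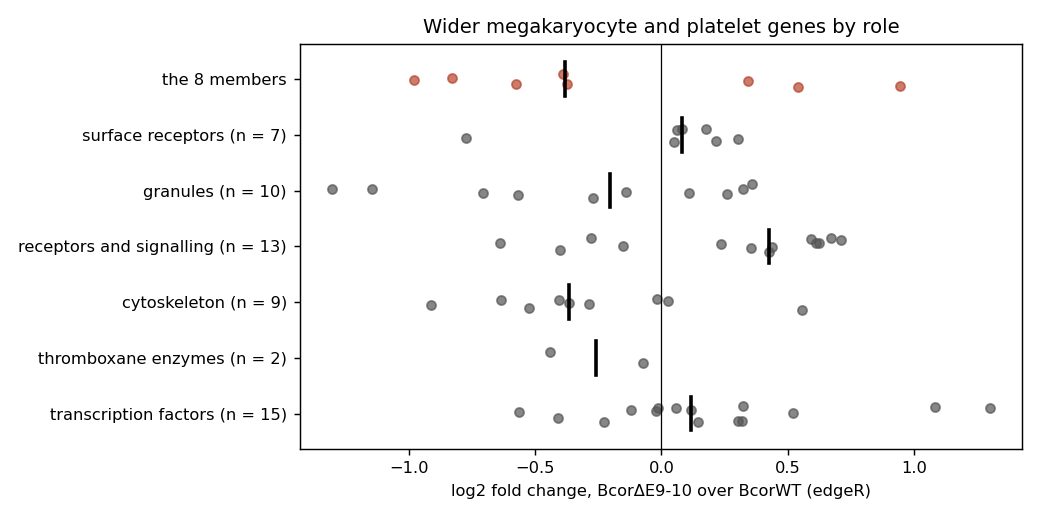
Log2 fold change, BcorΔE9-10 over BcorWT, of the 8 genes (red) and of the wider list by role (grey), 1 point a gene, with vertical bars at the medians and small vertical scatter added for legibility. Medians of the roles lie between -0.37 and 0.42 on both sides of 0.

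The labelled cell type was read against marker lists. Of 15 megakaryocyte markers, 7 were in the table (*Pf4*, *Itga2b*, *Gp1bb*, *Gp5*, *Itgb3*, *Treml1* and *Vwf*) and the other 8 were not analysed here. Their summed level was 128 and 157 CPM in BcorΔE9-10 and 121 and 288 CPM in BcorWT, or 69.3, 48.6, 59.3 and 101 CPM without *Gp1bb*. *Gp5* and *Treml1*, both close to megakaryocyte-restricted, were at 0.376 to 3.50 CPM and 1.46 to 4.52 CPM. The neutrophil list summed to between 73421 and 162058.7 CPM in the same libraries.

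Marker lists of other lineages were read beside these genes. All 11 erythroid markers in the table were higher in BcorΔE9-10, with groups that did not overlap for any of them and a median log2 fold change of 1.56, and 7 had an unadjusted p under 0.05 by edgeR. None passed after adjustment by edgeR or limma-voom, and 1, *Car2*, which encodes a carbonic anhydrase, passed by DESeq2 (adjusted p = 0.00467). Over all genes, 16.8% were higher without overlap and 1.34% were higher at that p. Their summed level was 216 and 193 CPM in BcorΔE9-10 and 80.6 and 90.0 CPM in BcorWT. *Gfi1b*, *Nfe2* and *Tal1* are expressed in erythroid cells as well, and the part of erythroid RNA in their values was not tested. All 6 basophil and mast cell markers were lower in BcorΔE9-10, 3 of them at an unadjusted p under 0.05, with sums of 410 and 529 CPM against 738 and 1070 CPM. All 5 eosinophil markers were lower, 3 of them at an unadjusted p under 0.05, with sums of 181 and 137 CPM against 264 and 356 CPM. Lower at an unadjusted p under 0.05 by edgeR were 3.07% of all genes. After adjustment none of these 11 markers passed by edgeR or limma-voom, and the basophil protease genes *Mcpt8* (adjusted p = 0.000705) and *Prss34* (adjusted p = 0.000623) passed by DESeq2, which called 0.356% of all genes. Of the 6 monocyte markers 4 were lower and 2 higher, with none at an unadjusted p under 0.05 by edgeR. Groups did not overlap for 4 that were lower and 1 that was higher, against 17.1% and 16.8% of all genes. Sums were 750 and 765 CPM in BcorΔE9-10 and 921 and 1737 CPM in BcorWT. The sort was for lineage-negative cells. *Itgam* and *Ly6g*, which encode targets of the CD11b and Gr-1 lineage antibodies, were detected at 73.7 to 159 CPM and 39.6 to 174 CPM. The part of basophil, mast cell, eosinophil and monocyte RNA in the values of *Pf4* and *Cd9* was not tested.

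For *Vwf* and *F2r* the endothelial list was read, in cells gated on CD45.2+. Of its 12 genes 4 were in the table, *Egfl7*, *Eng*, *Flt1* and *Esam*, with sums of 91.3 and 101 CPM in BcorΔE9-10 and 102 and 233 CPM in BcorWT. *Egfl7* (128 CPM) and *Eng* (98.2 CPM) made up most of the sum in BcorWT replicate 2, where *Esam* (1.51 CPM) and *Vwf* were at their lowest. *Eng* had an unadjusted p of 0.0214 by edgeR and was lower in BcorΔE9-10 (log2 fold change -1.19, adjusted p = 0.945), and the other 3 had an unadjusted p of 0.188 or more. The part of endothelial RNA in the *Vwf* and *F2r* values was not tested. The 5 stem cell markers in the table summed to 94.6 and 75.0 CPM against 112 and 91.6 CPM, and none had an unadjusted p under 0.05 by edgeR. *Vwf* and the stem cell sum were both highest in BcorWT replicate 1, as were 24.6% of all genes. *Vwf* was lowest in BcorWT replicate 2 and the stem cell sum in BcorΔE9-10 replicate 2. The part of stem cell RNA in the *Vwf* value was not tested.

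**Figure D5:**
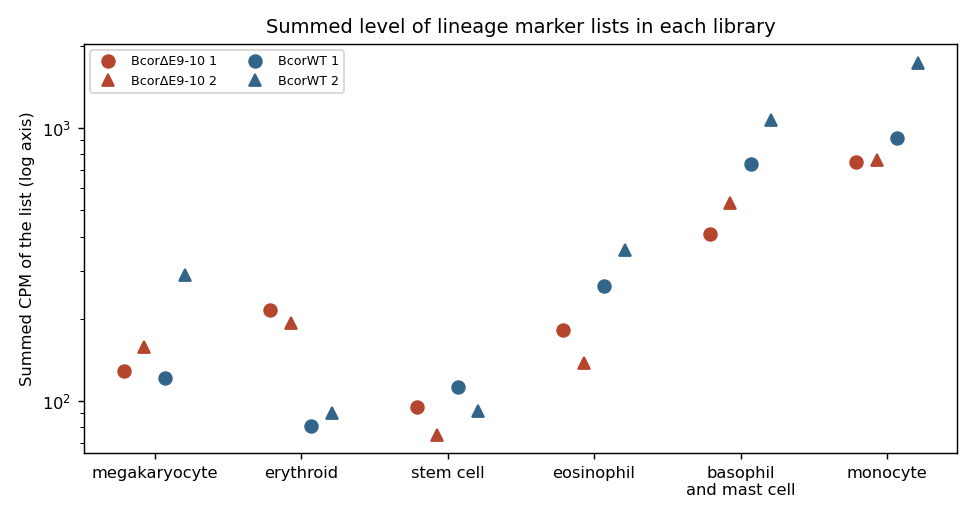
Summed level of each marker list in each library, in CPM on a log axis. Red marks are BcorΔE9-10 and blue marks BcorWT, with circles for replicate 1 and triangles for replicate 2. The erythroid sums are 216 and 193 CPM against 80.6 and 90.0 CPM, whereas the megakaryocyte sums overlap between the groups.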

How the data were processed

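The authors filtered the Quant-seq reads of the 4 libraries for quality, trimmed them with cutadapt and mapped them to mm10 (GRCm38) with HISAT2. Reads were counted per gene with featureCounts of Subread. The submitters' processing notes give cutadapt version 1.7, and the paper's methods give a different version. The deposited table holds raw counts for BcorΔE9-10 replicate 1 and BcorWT replicate 2. For the other libraries the deposited values were treated as estimated counts, since *Gm4430* alone is not whole there, and were rounded. The table holds 12067 genes, and the authors' level for inclusion is not given in the sources used here.

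Counts were fitted with edgeR 4.0.16 (R 4.3.3) after filterByExpr, which removed 0 genes, with TMM scaling, the quasi-likelihood F test, a prior count of 0.125 and Benjamini-Hochberg adjustment over all genes. The alternatives were DESeq2 size factors, a replicate block, a minimum of 10 counts per library, no filter, limma-voom (limma 3.58.1), DESeq2 1.42.0, a prior count of 2, *Gm42418* left out, and each library left out in turn. An exact permutation test of 2 against 2 libraries cannot go below p = 0.333, and none was used. Poisson intervals cover counting error only. Centred log2 CPM used a prior count of 2. The fits were tested on simulated data.

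The members and lists were chosen with earlier results of these data known, and the endothelial and stromal lists after the values were seen. Every member was named, with genes of the wider list at an unadjusted p under 0.05, the 3 further genes per role with the highest mean CPM, and the 5 genes nearest to the members' mean profile. *Sept5*, *Itgb3*, *Gp5*, *Treml1*, *S100a8*, *Ngp*, *Itgam*, *Eng*, *Car2*, *Mcpt8* and *Prss34* were named after their values were seen. Gene positions came from GENCODE M21 and promoters from RefSeq. Python 3.11.15 with pandas 2.3.3 and matplotlib 3.10.9 handled annotation and figures.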

Additional observations from a re-analysis of the deposited data

How the results depend on the processing

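*Pf4*, *Nfe2*, *F2r* and *Gfi1b* kept their direction under every alternative that gave a value (*Gfi1b* and *Vwf* had none with at least 10 counts in every library). *Vwf* turned to 0.21 with limma-voom. With single libraries left out, log2 fold changes ran from -0.96 to 0.61 for *Itga2b*, from -1.16 to 0.43 for *Gp1bb*, from -0.33 to 1.08 for *Cd9* and from -1.75 to 1.60 for *Vwf*. The lone library of a group was then assumed to vary like the others. Genes with an adjusted p under 0.05 over the table numbered 2, and 5 with at least 10 counts in every library, 4 with limma-voom, 43 with DESeq2 and 6 to 596 without single libraries (596 without BcorWT replicate 1). No member passed in any of these. Members higher in BcorΔE9-10 numbered 2 to 5 without single libraries. The members' median was -0.054 with limma-voom and between -0.38 and 0.16 without single libraries. Of the wider list, 3 genes had an unadjusted p under 0.05 with at least 10 counts, 2 with limma-voom, 3 with DESeq2 and 0 to 15 without single libraries, and its median ran from -0.15 to 0.14 without single libraries. The causes were not tested.

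With the replicate block, 14 genes of the table passed and the members' median was -0.27. Same-numbered libraries deviated with a correlation of -0.094, and they share only a number. Counts under 30, as for *Gfi1b* and *Vwf*, limit what could be detected.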
